A study of Mus musculus with 7 samples.

Results

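AP-1 transcription factors were followed in single muscle cells of the mouse through 9 genes, Fos, Fosb, Fosl1, Fosl2, Jun, Junb, Jund, Atf3 and Maff, out of 27998 genes in the deposited count tables. The genes were taken by their symbols, and all 9 were detected in every library. AP-1 is a dimer of proteins that share a basic region, which contacts DNA, and a leucine zipper, which joins the partners. JUN proteins pair with each other or with FOS proteins, whereas FOS proteins need a JUN partner; ATF3 can pair with JUN proteins, and MAFF is a small MAF protein that lacks a transactivation domain. Several of these genes are immediate early genes, transcribed within minutes of a stimulus from transcripts that decay rapidly, and in skeletal muscle Fos and Jun are known to be switched on while tissue is being dissociated into cells. No undissociated tissue is among the libraries.

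The libraries come from C56BL/6J mice (the strain as the labels spell it) and were made with a droplet kit that counts transcripts at their 3′ ends by unique molecular identifiers (UMIs). Primary myoblasts (1 library) were satellite cells from hindlimbs of wild-type mice 3 months old, grown in culture with 2.5 ng/µl bFGF and 10% horse serum on collagen, for 4 passages in the sample description and 4 to 5 in another label. Injured MuSCs (muscle stem cells; 2 libraries) were isolated by flow cytometry from TE-EDL muscles 60 h after 2 µM notexin, which damages myofibres and leads satellite cells to divide. Homeostatic MuSCs (2 libraries) were sorted from muscle whose location, age and treatment the labels do not give. For the homeostatic and injured samples the labels give the strain and no other genotype. Hindlimb muscle of wild-type mice 3 months old was digested and its viable cells collected for total muscle (2 libraries). Nothing says whether replicates came from separate mice or how many mice were pooled, so the p-values measure the spread between libraries, which may be technical.

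The libraries held 1295 to 4429 barcodes and 3319283 to 114382567 UMIs. Cells were called myogenic from 11 markers, among them Pax7, Myf5 and Myod1, and the gate kept 4353 cells of primary myoblasts (98.6%), 982 and 1191 of injured MuSC 1 and 2 (78.2% and 53.8%), 982 and 980 of homeostatic MuSC 1 and 2 (62.4% and 69.3%) and 67 and 87 of total muscle 1 and 2 (3.40% and 3.59%). Their median depth was 24867 UMIs in primary myoblasts, 7526 and 3456 in injured, 2552 and 2707 in homeostatic and 3411 and 3385 in total muscle. Of the 11 markers, 9 to 11 were detected in each library, and Myog, which marks differentiation, was absent from homeostatic MuSC 2 and both total muscle libraries. Injured MuSC 1 and 2 shared 253 cell barcodes, against 1 to 16 in the other 20 pairs of libraries. The tests that use the injured libraries, and the shares and splits of injured cells, are also given without the barcodes shared between libraries. Levels below are CPM, the UMIs of a gene scaled to a common total of UMIs of the myogenic cells of a library, with no further scaling. Log2 fold changes and adjusted p-values come from edgeR's quasi-likelihood test on summed counts with TMM scaling, fitted over all genes.

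The 9 genes lie on 8 chromosomes of GRCm38. Fos is on chromosome 12 (85473890 to 85477273, plus strand), Fosb on 7 (19302696 to 19310051, minus), Fosl1 on 19 (5447547 to 5455946, plus) and Fosl2 on 5 (32135801 to 32157842, plus). Jun is on chromosome 4 (95049034 to 95052222, minus), Junb on 8 (84974484 to 84978718, minus), Jund on 8 (70698949 to 70700616, plus), Atf3 on 1 (191170296 to 191218039, minus) and Maff on 15 (79346621 to 79359076, plus). No other transcript was nearly identical to the last 300 bases of any of them. Counted genes on the opposite strand overlap Fosl1 (Ccdc85b), Jun (Junos), Junb (Prdx2) and Jund (Gm11175). Whether counting used the strand is not stated, so the values of those 4 genes may hold reads of the partner.

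RefSeq promoters (GRCm38.p6) were matched for 8 of the 9 genes, 10 promoters in all, and the 150 bases before the transcription start are shown for the 6 genes in which they hold a match to a motif searched, a choice made after the search. Capitals mark matches to CGTCA, the half-site of the cyclic AMP response element, to TGACATCA, the AP-1-like element first described in the JUN promoter, or to TGACGTCA, a full cyclic AMP response element that contains CGTCA on both strands. Both strands were searched, so CGTCA on the opposite strand reads TGACG.
Fos, chr12:85473740-85473889, plus strand: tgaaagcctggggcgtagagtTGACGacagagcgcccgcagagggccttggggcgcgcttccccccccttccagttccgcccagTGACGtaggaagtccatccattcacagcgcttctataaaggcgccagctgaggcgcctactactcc
Fosb, chr7:19310046-19310195, minus strand: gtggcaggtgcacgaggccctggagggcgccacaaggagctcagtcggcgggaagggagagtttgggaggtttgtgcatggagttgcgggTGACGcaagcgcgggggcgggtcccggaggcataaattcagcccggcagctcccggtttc
Jun, chr4:95052223-95052372, minus strand: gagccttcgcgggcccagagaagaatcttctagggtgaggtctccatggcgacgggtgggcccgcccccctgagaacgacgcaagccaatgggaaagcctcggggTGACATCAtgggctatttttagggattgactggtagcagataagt
Junb, chr8:84978749-84978898, minus strand: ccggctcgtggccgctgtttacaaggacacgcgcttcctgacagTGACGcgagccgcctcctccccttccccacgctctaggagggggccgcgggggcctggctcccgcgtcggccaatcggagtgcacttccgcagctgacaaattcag
Atf3, chr1:191183334-191183483, minus strand: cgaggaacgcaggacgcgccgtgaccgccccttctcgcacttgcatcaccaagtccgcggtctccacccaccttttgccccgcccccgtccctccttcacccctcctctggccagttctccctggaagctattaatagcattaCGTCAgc
Maff, chr15:79347370-79347519, plus strand: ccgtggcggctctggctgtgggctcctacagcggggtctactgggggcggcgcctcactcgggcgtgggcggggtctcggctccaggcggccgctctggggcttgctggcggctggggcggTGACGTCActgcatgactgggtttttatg

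CGTCA was found in the 300-base promoters of 5 of the 8 genes (Fos, Fosb, Junb, Atf3 and Maff), and 20.8% of all 32851 mouse promoters of that length hold it. The promoter matched to Jund (70697489 to 70697788) ends before the gene start given above. Those of Fosl2 (32136222 to 32136521) and Atf3 (191183284 to 191183583) lie inside the genes. The bases at the gene starts given above were thus not searched for Jund, Fosl2 and Atf3. The Fos promoter held it at 2 places, which start 129 and 66 bases before the transcription start. TGACATCA was found in Jun, 45 bases before the start, and in another Maff promoter (3.62% of promoters), and TGACGTCA in Maff only (1.79%). The consensus AP-1 site TGACTCA, present in 5.20% of promoters, was found in none of the 10. A match is a run of letters and not a site shown to be bound.

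Together the 9 genes gave 772 CPM in primary myoblasts, 1196 and 1073 CPM in injured MuSC 1 and 2, 6662 and 4403 CPM in homeostatic MuSC 1 and 2 and 5616 and 4412 CPM in myogenic cells of total muscle 1 and 2. Primary myoblasts and injured cells thus lay below every homeostatic and total muscle library, and homeostatic and total muscle libraries overlapped.

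**Figure D1:**
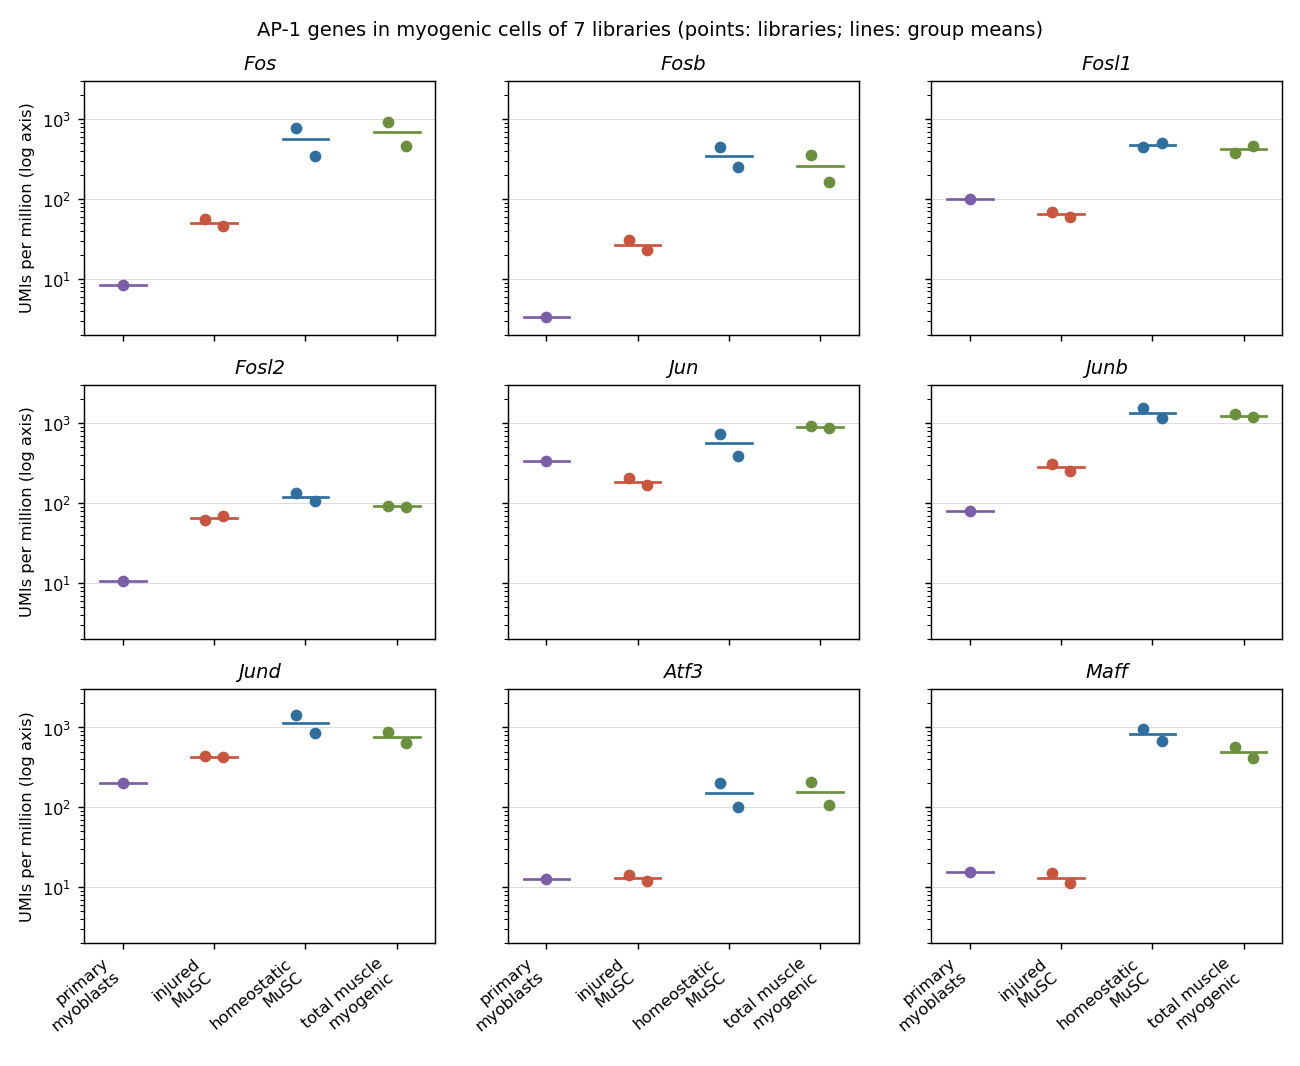
CPM (log axis) of each AP-1 gene in the myogenic cells of primary myoblasts, injured MuSCs, homeostatic MuSCs and total muscle; points are libraries and lines are group means. Every gene is lower in both injured libraries than in both homeostatic ones, with Maff at 11.4 to 15.0 CPM against 679 to 961 CPM, whereas Fosl2 differs least, with 61.0 to 69.4 CPM against 107 to 134 CPM.

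At 60 h after notexin, every AP-1 gene was lower in injured than in homeostatic MuSCs. All 9 fell (adjusted p 0.00336 or less), and the libraries of the groups did not overlap for any of them. Neither did those of 87.3% of all genes tested, 48.9% with both injured libraries lower. Of the 9957 genes tested, 36.6% were called lower, 38.2% higher and 74.8% in either direction, so a call by itself is common in this comparison. The median log2 fold change was -2.58 over the 9 genes and 0.036 over all genes tested. Without TMM scaling the median of all genes moves to -0.245, and all 9 genes were again called lower.

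Among the FOS family, Fos, the prototype immediate early gene, had 55.7 and 45.5 CPM in injured MuSC 1 and 2, against 769 and 347 CPM in homeostatic MuSC 1 and 2. It fell by 3.18 ± 0.27 on the log2 scale (SE; edgeR adjusted p = 4.17e-09). Fosb, which encodes a FOS protein with a strong activation domain and, by splicing, the stable form deltaFosB, had 30.4 and 23.0 CPM in injured cells, against 447 and 254 CPM in homeostatic cells. Its log2 fold change was -3.42 ± 0.24 (edgeR adjusted p = 2.77e-10). The homeostatic libraries were themselves apart, with homeostatic MuSC 1 at 2.21 times homeostatic MuSC 2 for Fos and 1.76 times for Fosb, and both injured libraries lay below the lower of them.

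Fosl1 encodes FRA-1 and Fosl2 encodes FRA-2, FOS proteins without a strong activation domain that usually appear later than FOS after a stimulus. Fosl1 had 69.2 and 60.3 CPM in injured cells, against 443 and 500 CPM in homeostatic cells. It fell by 2.58 ± 0.17 on the log2 scale (edgeR adjusted p = 8.61e-11), and the replicates of each group were close together. Fosl2 had 61.0 and 69.4 CPM in injured cells, against 134 and 107 CPM in homeostatic cells. Its log2 fold change of -0.61 ± 0.17 was the smallest of the 9 (edgeR adjusted p = 0.00336). Without injured MuSC 1 it was -0.50 and no longer called, and with 1 library left out it ran from -0.81 to -0.48. The call of Fosl2 thus depends on the library left out, while the sign of its fold change does not.

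In the JUN family, Jun, the partner with which FOS proteins were first described, had 204 and 169 CPM in injured cells, against 729 and 389 CPM in homeostatic cells (log2 fold change -1.30 ± 0.22, edgeR adjusted p = 2.89e-05). Junb, a weaker activator that can oppose JUN, had 310 and 257 CPM in injured cells, against 1534 and 1176 CPM in homeostatic cells (-1.98 ± 0.17, edgeR adjusted p = 4.96e-09). Jund, the family member that is present at a steady level in many resting cells, had 436 and 426 CPM in injured cells, against 1445 and 851 CPM in homeostatic cells. Its log2 fold change was -1.14 ± 0.19 (edgeR adjusted p = 3.23e-05). The 3 JUN genes thus fell, but by log2 values closer to 0 than those of Fos, Fosb and Fosl1; differences between genes were not tested.

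The partners from neighbouring bZIP families fell too. Atf3, a stress-induced factor that mostly represses as a homodimer, had 14.3 and 12.1 CPM in injured cells, against 200 and 100 CPM in homeostatic cells (log2 fold change -3.21 ± 0.27, edgeR adjusted p = 3.12e-09). Maff, a small MAF protein, had 15.0 and 11.4 CPM in injured cells, against 961 and 679 CPM in homeostatic cells. At -5.65 ± 0.23 (edgeR adjusted p = 1.32e-13) it had the largest fold change of the 9, 50.3-fold lower in injured cells. Only 113 and 50 Maff UMIs were counted in the 982 and 1191 injured cells, against 2420 and 1772 in the 982 and 980 homeostatic cells.

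**Figure D2:**
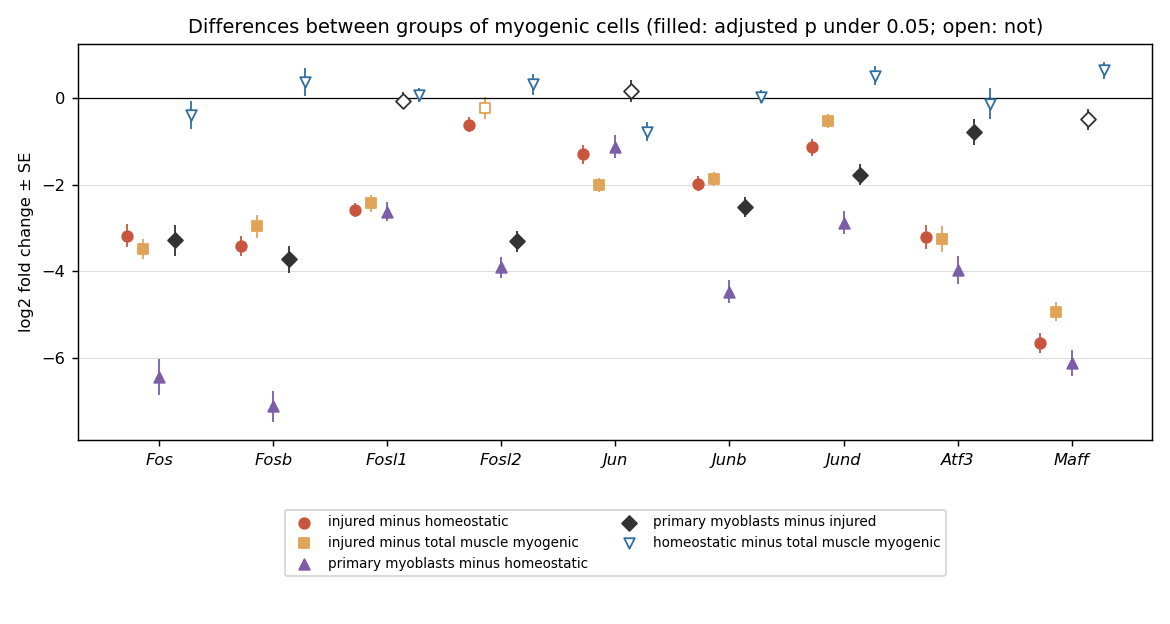
Log2 fold change ± SE of each AP-1 gene between groups of myogenic cells (first group minus second), from edgeR's quasi-likelihood test; filled symbols have an adjusted p under 0.05. All 9 genes fall in injured against homeostatic cells and in primary myoblasts against homeostatic cells, and no symbol of homeostatic against total muscle cells is filled.

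Without the barcodes shared between libraries, all 9 genes were again called lower, from -5.75 for Maff to -0.65 for Fosl2. Markers of other cell types moved with the injury comparison in the myogenic sums. The 5 erythroid genes summed to 0.795 and 0.910 CPM in injured MuSC 1 and 2 (3 and 4 of them at 0), against 216 and 59.0 CPM in homeostatic MuSC 1 and 2. The 9 mural markers summed to 31.5 and 37.3 CPM in injured cells (5 and 3 at 0, Pdgfrb in both), against 237 and 190 CPM in homeostatic cells, and 9 endothelial markers (3 and 6 at 0 in injured cells) to 7.56 and 6.83 CPM against 24.2 and 26.4 CPM. The 11 myogenic markers themselves summed to 1018 and 1465 CPM in injured cells, against 4426 and 4372 CPM in homeostatic cells. Fibro-adipogenic markers, of which 9 and 6 of 10 were detected in injured cells and 8 and 7 in homeostatic cells, summed to 96.4 and 89.0 CPM, against 327 and 272 CPM, with Dpp4 at 0 in all 4 libraries. Tenocyte markers moved the other way, with 78.6 and 119 CPM in injured cells, against 12.3 CPM in each homeostatic library. For scale, fibro-adipogenic cells of total muscle hold 30480 and 30296 CPM of their own list and mural cells 13916 and 12926 CPM of theirs. The part of other cell types in the result was not tested. Without cells holding 2 or more markers of another type all 9 genes were called lower, from -5.59 for Maff to -0.62 for Fosl2. That rule keeps cells with fewer than 2 such markers, so it does not take out all transcripts of other types.

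The mixture of AP-1 transcripts differed between groups as well as the amount. Jund made up 36.4% and 39.7% of the UMIs of the 9 genes in injured MuSC 1 and 2, against 21.7% and 19.3% in homeostatic MuSC 1 and 2, and Fosl2 5.10% and 6.47% against 2.02% and 2.43%. Maff made up 1.25% and 1.06% in injured cells, against 14.4% and 15.4% in homeostatic cells, and Fos 4.65% and 4.24% against 11.5% and 7.88%. Without shared barcodes the Jund share was 36.1% and 39.3% in injured cells, against 21.6% and 19.3%, and the Fosl2 share 4.79% and 6.47%, against 2.02% and 2.43%. Junb took a like share in each, with 25.9% and 23.9% in injured cells and 23.0% and 26.7% in homeostatic cells. Jun reached 43.6% of AP-1 UMIs in primary myoblasts, against 17.1% and 15.7% in injured cells. These are shares of 3′ tag counts, with no test run, and 2 libraries against 2 cannot give an exact permutation p below 0.333.

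**Figure D3:**
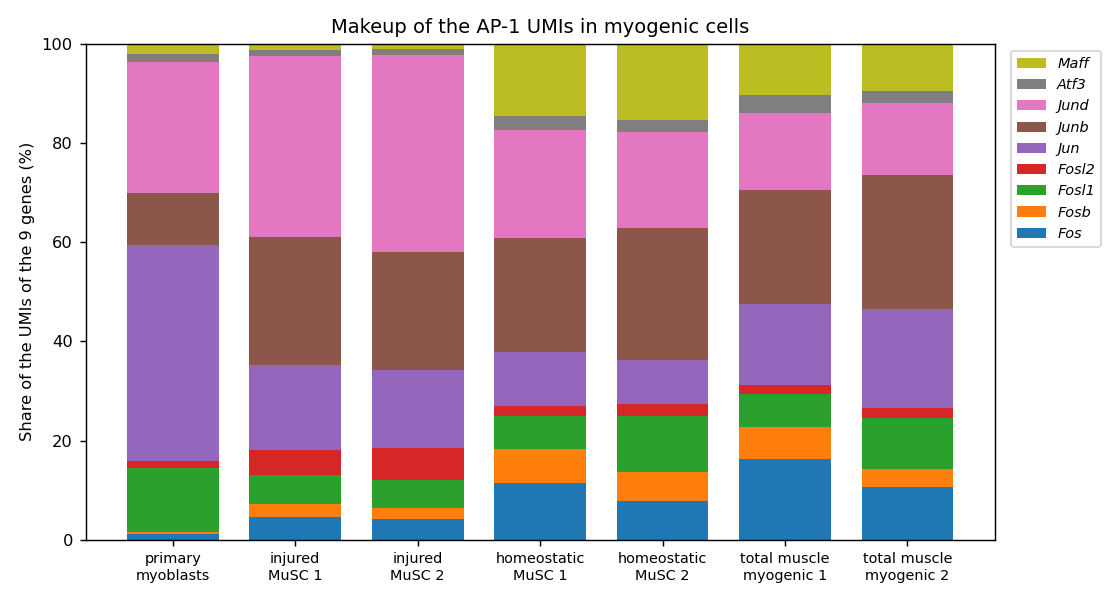
Share of the UMIs of the 9 AP-1 genes that each gene gives (stacked to 100%) in the myogenic cells of each library, from primary myoblasts at the left to total muscle at the right. Maff nearly disappears from the injured bars (1.06% to 1.25%, against 14.4% to 15.4% in homeostatic ones), and Jun is widest in primary myoblasts (43.6%).

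Counted per cell, AP-1 transcripts were found in fewer injured cells. After each cell was thinned to 1000 UMIs, which left out 0 and 14 injured and 98 and 128 homeostatic cells, 34.4% and 37.8% of injured cells held no UMI of any of the 9 genes, against 2.72% and 7.63% of homeostatic cells. Cells with UMIs of 4 or more of the genes made up 1.32% and 0.935% of injured cells, against 38.6% and 22.8% of homeostatic cells. Maff was seen in 1.83% (exact 95% interval 1.09 to 2.88) and 1.19% (0.652 to 1.99) of injured cells, against 47.6% (44.3 to 51.0) and 38.9% (35.6 to 42.2) of homeostatic cells. Before thinning the Maff shares were 10.4% and 4.11% of injured cells, against 70.1% and 57.8% of homeostatic cells. Jund was the most widespread gene in injured cells, with 33.6% (30.7 to 36.7) and 31.6% (29.0 to 34.3), against 61.3% (58.0 to 64.5) and 45.4% (42.0 to 48.8) of homeostatic cells (unthinned 87.0% and 69.2%, against 80.3% and 70.0%). Without shared barcodes 35.2% and 37.9% of injured cells held none of the 9 genes, against 2.73% and 7.57% of homeostatic cells, and Maff was seen in 1.80% and 1.15%, against 47.7% and 38.7%. Intervals cover counting error only.

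**Figure D4:**
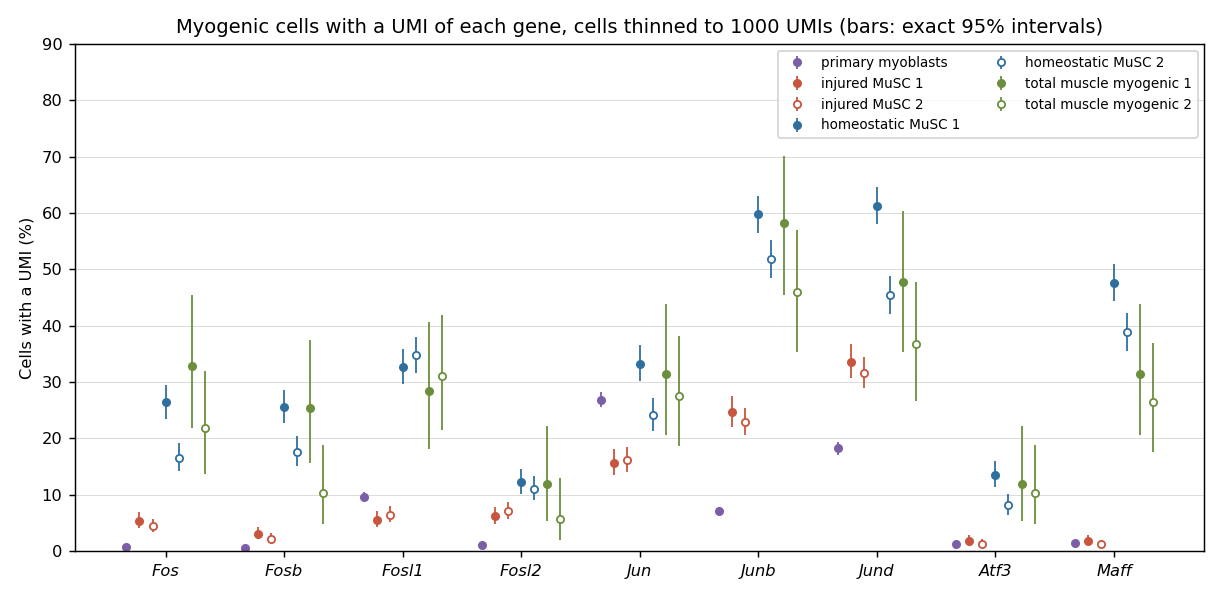
Share of myogenic cells with a UMI of each AP-1 gene after thinning every cell to 1000 UMIs, with exact 95% binomial intervals, from primary myoblasts and injured MuSCs to homeostatic MuSCs and total muscle. Injured shares lie below homeostatic ones for every gene, most of all for Maff (1.19% to 1.83%, against 38.9% to 47.6%).

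Within homeostatic cells the genes Fos and Jun varied together from cell to cell. Across 884 and 852 thinned homeostatic cells the correlation of Fos and Jun was 0.43 and 0.36, and it was 0.66 and 0.45 across 67 and 87 myogenic cells of total muscle. In injured cells it was -0.01 and 0.08, and over all 36 pairs of genes it ran from -0.05 to 0.10 in injured MuSC 1, where counts per cell are low. For Fosl1 and Fos it was -0.08 and -0.04 in homeostatic cells and -0.23 and -0.25 in myogenic cells of total muscle. These values describe cells that share a library and a depth, and a weak value in such sparse counts is no finding.

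Injured cells with and without UMIs of Myog were compared, a split chosen with values of these data known. Cells were not thinned for it, and a cell with no Myog UMI may still express Myog. Cells with 2 or more UMIs of Myog, the factor that starts terminal differentiation, numbered 101 and 170 in injured MuSC 1 and 2, and cells with none 781 and 853. Fos had 34.4 and 23.2 CPM in the Myog-positive cells, against 59.8 and 44.1 CPM in those without Myog, Fosl1 had 48.3 and 46.4 CPM against 72.9 and 63.3 CPM, and Jun had 150 and 136 CPM against 213 and 169 CPM. All 3 genes were lower with Myog in both libraries. So were Fosb (17.8 and 14.9 CPM, against 33.4 and 25.8 CPM), Jund (365 and 374 CPM, against 449 and 447 CPM), Atf3 and Maff. Few UMIs lie behind some of these directions. The Myog-positive cells of injured MuSC 1 and 2 held 14 and 9 UMIs of Fosb, 9 and 5 of Atf3 and 10 and 4 of Maff. Without shared barcodes Fos was at 26.7 and 24.3 CPM, against 62.5 and 45.2 CPM, and Fosl1 at 44.1 and 46.8 CPM, against 73.3 and 62.0 CPM. Jun was at 162 and 139 CPM there, against 215 and 171 CPM. Fosb, Jund and Atf3 were also lower in both libraries, but Maff was not in injured MuSC 1 (15.7 CPM, against 15.0 CPM). Junb had 323 and 229 CPM in Myog-positive cells, against 312 and 260 CPM, with no common direction. Nor had Fosl2, with 68.7 and 54.7 CPM, against 62.5 and 68.6 CPM. In primary myoblasts, Jun had 358 CPM in 1817 Myog-positive cells, against 322 CPM in 1252 cells without Myog, the opposite order, while Fosl1 had 86.1 CPM, against 109 CPM, in the same order as after injury. No test was run on these splits.

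Injured MuSCs were also set against the myogenic cells of total muscle, a comparison that shares its injured libraries with the previous comparison. Of the 9 genes, 8 fell, where 23.2% of the 8535 genes tested were called lower, 31.1% higher and 54.3% in either direction. Fos (-3.48 ± 0.22, edgeR adjusted p = 2.19e-14), Fosb (-2.96 ± 0.26), Fosl1 (-2.43 ± 0.19), Jun (4.01-fold lower), Junb (-1.86 ± 0.16), Atf3 (-3.25 ± 0.29) and Maff (-4.93 ± 0.22) had log2 fold changes of the same sign as against homeostatic cells. Jund was at -0.54 ± 0.16 (edgeR adjusted p = 0.00570), but was not called without injured MuSC 2 (-0.38) or without total muscle 1 (-0.24). Fosl2 had 61.0 and 69.4 CPM in injured cells, against 91.8 and 90.4 CPM in total muscle, with a log2 fold change of -0.23 ± 0.25 that did not pass the test (adjusted p = 0.464). Without shared barcodes 8 genes were again called lower, with Jund at -0.50, and Fosl2 was not (-0.21). The median log2 fold change of all genes was 0.286 in this comparison.

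Homeostatic MuSCs were set against the myogenic cells of total muscle, which were gated by the same markers but not sorted as satellite cells. The labels give no muscle location, age or treatment for the homeostatic libraries, so the sort cannot be told apart from these. None of the 9 genes passed the test with edgeR, and none with DESeq2, while 5.88% of 7379 genes did with edgeR (2.97% higher and 2.91% lower). At an unadjusted p under 0.05 there were 3, as were 18.8% of all genes tested. Jun had 729 and 389 CPM in homeostatic MuSC 1 and 2, against 918 and 882 CPM in total muscle 1 and 2 (log2 fold change -0.78 ± 0.23, edgeR adjusted p = 0.0613). Maff had 961 and 679 CPM in homeostatic cells, against 576 and 420 CPM (0.64 ± 0.19, edgeR adjusted p = 0.0750), and Jund 1445 and 851 CPM, against 868 and 643 CPM (0.52 ± 0.22, edgeR adjusted p = 0.212). Fos, with 769 and 347 CPM in homeostatic cells, against 918 and 465 CPM, overlapped between the groups, and so did 5 other genes; Jun, Maff and Fosl2 did not overlap, and neither did 51.8% of all genes tested. The count of genes called changed with the library left out. Without homeostatic MuSC 1 it was 2 of the 9 (10.6% of all genes) and without homeostatic MuSC 2 it was 3 (16.2%), and it was 4 without total muscle 1 (5.09%) and 2 without total muscle 2 (3.51%). Over the alternatives the adjusted p of Jun ran from 4.82e-11 to 0.311, that of Maff from 2.96e-06 to 0.439 and that of Jund from 2.68e-07 to 0.833. Cells holding 2 or more markers of another type made up 12.3% and 8.67% of homeostatic cells, against 47.8% and 35.6% of the myogenic cells of total muscle. Fibro-adipogenic markers summed to 327 and 272 CPM in homeostatic cells, against 542 and 539 CPM in total muscle, tenocyte markers to 12.3 CPM in each homeostatic library, against 129 and 107 CPM, and endothelial markers to 24.2 and 26.4 CPM, against 87.6 and 155 CPM. Mural markers moved the other way, with 237 and 190 CPM in homeostatic cells, against 167 and 139 CPM. Dpp4, of the fibro-adipogenic list, and Kera, of the tenocyte list, were at 0 in all 4 libraries. Without the cells holding 2 or more markers of another type none of the 9 genes was called, with Jun at -0.96 (edgeR adjusted p = 0.0519) and Maff at 0.74 (0.0760).

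Primary myoblasts, proliferating descendants of satellite cells in serum and bFGF, had the lowest summed level of the 9 genes of all libraries (772 CPM). With 1 library, they are assumed in the fit to vary like the sorted groups. Against homeostatic cells all 9 genes fell, where 31.6% of 11871 genes were called lower, 38.7% higher and 70.4% in either direction, and the median log2 fold change of all genes was 0.174. Fosb had 3.31 CPM in primary myoblasts, against 447 and 254 CPM in homeostatic MuSC 1 and 2 (log2 fold change -7.11 ± 0.37, edgeR adjusted p = 5.50e-13). Fos had 8.43 CPM, against 769 and 347 CPM (-6.44 ± 0.41, edgeR adjusted p = 1.40e-11), and Maff 15.4 CPM, against 961 and 679 CPM (-6.12 ± 0.30, edgeR adjusted p = 2.69e-13). Junb (-4.46 ± 0.26), Atf3 (-3.97 ± 0.32), Fosl2 (-3.90 ± 0.24), Jund (-2.88 ± 0.27) and Fosl1 (-2.62 ± 0.22) followed. Jun, with 336 CPM in primary myoblasts, against 729 and 389 CPM in homeostatic cells, had the log2 fold change closest to 0, -1.12 ± 0.27 (edgeR adjusted p = 0.000928). Mural markers moved the other way in the same sums, at 995 CPM in primary myoblasts (8 of 9 detected, Higd1b at 0) and 190 to 237 CPM in homeostatic cells, as did fibro-adipogenic markers (660 CPM and 272 to 327 CPM), and their part in the result was not tested.

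Between primary myoblasts and injured cells the AP-1 genes parted. Among them 6 fell, where 25% of 11871 genes were called lower, 32.5% higher and 57.5% in either direction, and 3 did not pass the test. This comparison shares its libraries with those above. Fosl2 had 10.6 CPM in primary myoblasts, against 61.0 and 69.4 CPM in injured MuSC 1 and 2 (log2 fold change -3.31 ± 0.23, edgeR adjusted p = 1.44e-10). The gene with the smallest fold change after injury had a fold change close to that of Fos here, and differences between genes were not tested. Fosb (-3.72 ± 0.32), Fos (-3.29 ± 0.35), Junb (-2.51 ± 0.23) and Jund (-1.77 ± 0.25) also fell. Atf3 was at -0.79 ± 0.30 (edgeR adjusted p = 0.0309), but was not called without injured MuSC 1 (-0.60) or without injured MuSC 2 (-0.88). Nor was it called without scaling (-0.09), with DESeq2 (-0.91), with 1 more marker in the gate (-0.68) or with thinned cells (-0.99). It was also not called without cells holding 2 or more markers of another type (-0.36). Such cells make up 68.0% of primary myoblasts, against 5.19% and 0.840% of injured cells. Median depth differed too (24867 UMIs, against 7526 and 3456), and its part in that share was not tested. Jun had 336 CPM in primary myoblasts, against 204 and 169 CPM in injured cells (0.15 ± 0.26, edgeR adjusted p = 0.628). Fosl1 had 101 CPM, against 69.2 and 60.3 CPM (-0.06 ± 0.20, edgeR adjusted p = 0.799), and Maff 15.4 CPM, against 15.0 and 11.4 CPM (-0.49 ± 0.25, edgeR adjusted p = 0.0952). The scale matters for these 3 as for Atf3. Without TMM scaling the median log2 fold change of all genes moves to 0.882, from 0.186 with it, and Jun (0.85) and Fosl1 (0.63) are called higher while Maff is at 0.20 and not called. Maff was called lower with RLE size factors (-0.62), without homeostatic MuSC 2 (-0.51), with the replicate block (-0.69) and with all cells and no gate (-0.76). Without shared barcodes 6 genes were again called lower, with Atf3 at -0.80, while Jun (0.14), Fosl1 (-0.04) and Maff (-0.39) again did not pass the test.

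In total muscle the 9 genes were compared across 9 gated cell types of at least 30 cells in each library. All 9 differed among types (edgeR F-test, adjusted p 7.21e-08 or less), as did 89.8% of the 9518 genes tested. Myogenic cells, with 5616 and 4412 CPM for the sum of the 9 genes, stood below endothelial cells (16306 and 15740 CPM), mural cells (14974 to 15741 CPM), fibro-adipogenic cells (10359 to 10505 CPM) and tenocytes (9523 to 10668 CPM). B cells (6245 and 6837 CPM) also lay above both myogenic sums. T or NK cells (5236 to 5316 CPM) and macrophages (4466 to 4571 CPM) lay between the myogenic sums of the libraries. Myofibre-gated barcodes were lowest, with 2669 to 3775 CPM, and there the libraries differ widely for single genes. Glial cells, at 21 and 22 cells, were measured (10476 to 13409 CPM) but not tested, erythroid cells (18 and 12) were left out, and no cell passed the gate for neutrophils.

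**Figure D5:**
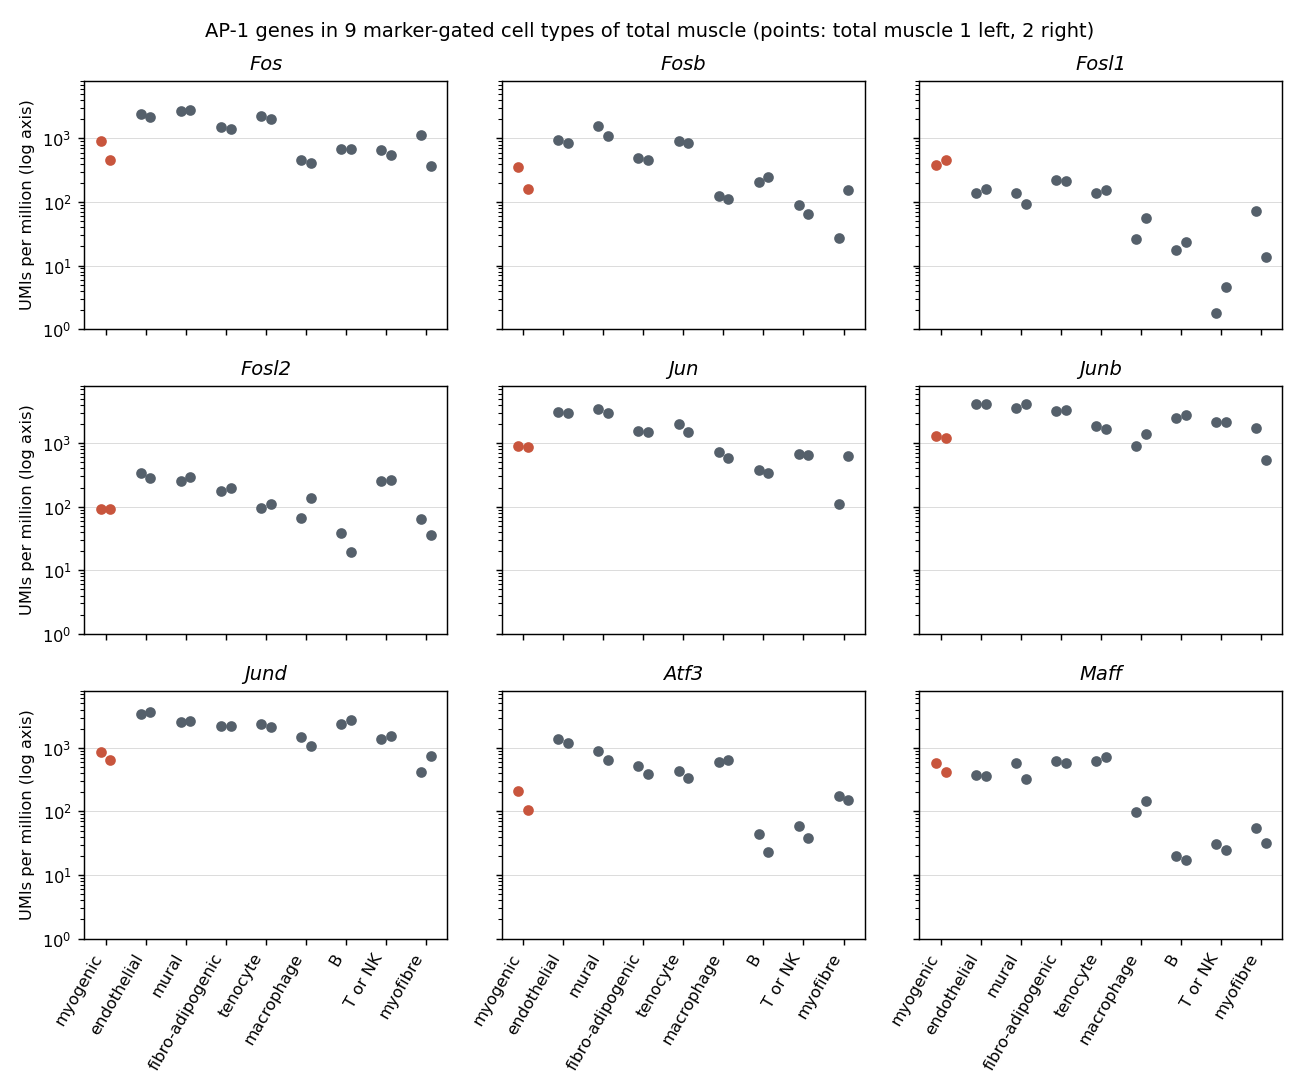
CPM (log axis) of each AP-1 gene in myogenic cells and 8 other marker-gated cell types of total muscle; each type has a point for total muscle 1 (left) and total muscle 2 (right). Fosl1 is highest in myogenic cells (380 and 459 CPM), whereas the myogenic points of Jund lie below those of 7 of the 8 other types.

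Set against the mean of the 8 other types, myogenic cells had 2 genes higher and 4 lower, where 17.6% of genes were called higher and 11.9% lower (29.6% in all). Fosl1 had 380 and 459 CPM in myogenic cells of total muscle 1 and 2, against 221 and 215 CPM in fibro-adipogenic cells, the next type in order, and 1.80 and 4.59 CPM (4 UMIs in all) in T or NK cells. Its log2 difference from the mean of the other types was 2.96 ± 0.17 (edgeR adjusted p = 4.62e-15). After thinning, 28.4% and 31.0% of myogenic cells held a Fosl1 UMI (59.7% and 69.0% unthinned, at median depths of 3411 and 3385 UMIs). Of T or NK cells, 0.526% and 0.976% did (0.526% and 1.46% unthinned, at 2652 and 2683 UMIs). Fosl1 was thus the member with its highest level in myogenic cells, and the replicates of myogenic and fibro-adipogenic cells did not overlap.

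Maff was the other member called higher in myogenic cells, at 576 and 420 CPM (1.74 ± 0.17 on the log2 scale, edgeR adjusted p = 8.53e-10). Its order of mean levels ran from tenocytes (664 ± 66.9 CPM, SD, n = 2) and fibro-adipogenic cells (600 ± 36.4) through myogenic cells (498 ± 110), mural cells (447 ± 181) and endothelial cells (370 ± 6.91) to macrophages (121 ± 34.9), myofibres (43.4 ± 16.2), T or NK cells (27.5 ± 4.36) and B cells (18.7 ± 2.08). Neighbours overlapped from tenocytes down to endothelial cells and did not from macrophages down. Myogenic cells overlapped fibro-adipogenic cells (574 to 625 CPM) and mural cells (319 to 575 CPM), and lay below both tenocyte libraries (617 to 711 CPM) and above both endothelial ones (365 to 375 CPM).

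Lower in myogenic cells than in the mean of the others were Jund (868 and 643 CPM; -1.35 ± 0.19, edgeR adjusted p = 1.63e-06), Junb (1298 and 1185 CPM; -0.91 ± 0.21, edgeR adjusted p = 0.00102), Atf3 (209 and 107 CPM; -0.88 ± 0.21, edgeR adjusted p = 0.00146) and Fos (918 and 465 CPM; -0.79 ± 0.20, edgeR adjusted p = 0.00290). Jun (-0.31 ± 0.23), Fosl2 (-0.51 ± 0.26) and Fosb (-0.40 ± 0.24) did not pass the test. Leaving out cells with 2 or more markers of another type, which leaves 1 and 2 tenocytes and 35 and 56 myogenic cells, ended the calls of Fos (0.26) and Atf3 (-0.30) and kept those of Fosl1, Maff, Jund and Junb. Without those cells Fosb was called higher in myogenic cells (1.60 ± 0.57, edgeR adjusted p = 0.0244), the opposite sign to its value with all cells. Without the myofibre-gated barcodes, whose libraries disagree, Jun (-0.42), Fosl2 (-0.64) and Fosb (-0.55) were also called lower. By mean level, myogenic cells stood at place 9 of 10 types for Jund, 8 for Junb, Atf3 and Fosl2, 7 for Fos and 6 for Jun and Fosb.

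The other types differed in which AP-1 genes they held. In endothelial cells all 9 genes were called higher than in the mean of the other types (30.8% of genes were, 13.5% lower and 44.3% in all), led by Atf3 at 1361 and 1185 CPM (2.54 ± 0.12 on the log2 scale, edgeR adjusted p = 2.74e-18). Fibro-adipogenic cells also had all 9 higher (30.4% of genes were, 8.19% lower and 38.6% in all), led by Maff (4.59-fold higher) and Fosl1 (2.03 ± 0.13). Tenocytes had 7 higher (25.3% of genes were, 7.58% lower and 32.9% in all), led by Maff (2.40 ± 0.14), and mural cells 7 (11.5% of genes were, 4.08% lower and 15.6% in all), led by Fosb at 1588 and 1074 CPM (2.04 ± 0.21). Mural cells also held the highest Fos of the tested types, 2676 to 2837 CPM.

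The genes called higher in immune types were higher still in endothelial cells of total muscle 1 and 2. Those held Atf3 at 1361 and 1185 CPM, Fosl2 at 339 and 284 CPM and Jund at 3408 and 3633 CPM. Macrophages had 1 gene called higher (17.1% of genes were), Atf3 (609 to 646 CPM, 1.62 ± 0.15 on the log2 scale), and 3 lower (7.48% of genes, 24.5% in all), Fosb, Fos and Junb. T or NK cells had Fosl2 higher, at 252 to 260 CPM (1.17 ± 0.17; 22.3% of genes were called higher), and 6 genes lower (14.7% of genes, 36.9% in all), among them Fosl1 (-4.84 ± 0.43) and Maff (-2.94 ± 0.26). B cells had Jund higher, at 2398 to 2714 CPM (0.54 ± 0.16; 26.6% of genes), and 7 lower (17.2% of genes, 43.8% in all), led by Maff (-3.66 ± 0.26) and Atf3 (-3.46 ± 0.23). Myofibre-gated barcodes had none higher (16.9% of genes) and 6 lower (12% of genes, 28.9% in all). Each of these contrasts shares its fit with the others, and they are given side by side rather than as independent results.

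The genes whose levels over the 9 types were most like those of a member were found by Pearson's r of mean log2(CPM + 1) over 2845 genes of at least 50 CPM. For Maff they were Ifrd1 (r = 0.99), Pttg1ip (0.98) and Gng12 (0.98), for Fosl1 Etf1, Nfia and Csnk1e (each 0.94), and for Fos Timp3 (0.97), Igfbp7 (0.97) and Sept4 (0.96). For Atf3 they were Rhoc (0.98), App (0.97) and Ier3 (0.97). Junb was most like Sptbn1 (0.90), Elf1 (0.89) and its family member Jund (0.89). The types share both libraries, so these values describe 9 points and carry no p.

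Genes around AP-1 were taken from lists of the pathway. Among other bZIP factors, which pair with AP-1 proteins or compete for their sites, 9 of 14 tested fell and 2 rose in injured against homeostatic cells (median -1.35, against 0.036 over all genes, of which 36.6% fell and 38.2% rose). Mafk, another small MAF gene, had 5.83 and 4.10 CPM in injured cells, against 284 and 236 CPM in homeostatic cells (-5.38 ± 0.22, edgeR adjusted p = 2.29e-13). Mafg, the third small MAF gene, was at -1.45 ± 0.16, and Nfe2l2, which encodes the oxidative stress factor NRF2, a partner of small MAF proteins, at -2.51 ± 0.17. The 2 that rose were Atf2 (1.99), which pairs with JUN, and Jdp2 (2.27), a repressor of AP-1 sites, both named after their values were seen.

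Of 14 upstream kinases 5 rose and 5 fell in injured cells (median -0.205), close to the 38.2% of all genes that rose and 36.6% that fell, with Map2k3, a p38 activator, at -1.61 ± 0.15, Map2k1 (MEK1) at -1.55 ± 0.19 and Map2k2 (MEK2) at 0.56 ± 0.16. Among 5 serum response factors 2 rose and 2 fell (median 0.10); Elk4, a ternary complex factor, was at -2.48 ± 0.19. Of 10 MAPK phosphatases 8 fell and 2 rose (median -1.09). Dusp1, itself an immediate early gene, had 27.8 and 23.0 CPM in injured cells, against 335 and 268 CPM in homeostatic cells (-3.28 ± 0.19, edgeR adjusted p = 1.69e-11). Of 10 genes of mRNA decay and protein turnover 7 fell and 1 rose (median -1.46), with Trib1 at -4.37 ± 0.19, Btg1 at -2.42 ± 0.15 and Zfp36l1, which binds AU-rich elements, at -2.25 ± 0.17.

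Among other immediate early genes 12 of 13 fell and none rose in injured cells (median -2.31), where 36.6% of all genes fell and 38.2% rose. Egr1 had 6.23 and 5.92 CPM in injured cells, against 898 and 589 CPM in homeostatic cells (-6.64 ± 0.25, edgeR adjusted p = 6.71e-14), and Ier2 had 63.9 and 55.8 CPM, against 770 and 610 CPM (-3.24 ± 0.18). Of 18 tested AP-1 targets from the literature 12 fell and 5 rose (median -1.97), beside the same shares of all genes. Hmox1, heme oxygenase, had 58.6 and 44.6 CPM in injured cells, against 2317 and 2976 CPM in homeostatic cells (-5.39 ± 0.20), and the metallothionein genes Mt1 (-2.01 ± 0.15) and Mt2 (-2.95 ± 0.14) fell. These targets also answer to other factors, and the counts say nothing of AP-1 binding.

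The same lists differed elsewhere. In homeostatic against total muscle myogenic cells 2 of 13 other immediate early genes fell, Cyr61 (-1.26 ± 0.15) and Myc (-0.66 ± 0.13), and none rose, where 2.91% of all genes fell and 2.97% rose. Of 17 AP-1 targets 3 rose and 2 fell there, with Mt1 at 1.11 ± 0.11, Mt2 at 0.79 ± 0.09 and Vim, vimentin, at -0.52 ± 0.12. Between primary myoblasts and injured cells the immediate early genes divided, with 6 of 13 higher (32.5% of all genes were) and 5 lower (25%), with a median of 0.72, against 0.186 over all genes: Cyr61 rose (0.72 ± 0.21) and Myc (-2.18 ± 0.22) and Klf6 (-1.52 ± 0.20) fell. Of 18 AP-1 targets 6 rose and 10 fell there, and Spp1, osteopontin, had 20479 CPM in primary myoblasts, against 565 and 360 CPM in injured cells (4.77 ± 0.31, edgeR adjusted p = 2.65e-11). In myogenic cells against the mean of the other types of total muscle, 5 of 13 immediate early genes were higher (17.6% of all genes were) and 4 lower (11.9%), with a median of 0.38, against -0.146 over all genes. Klf2, an endothelial and lymphocyte factor, was at -4.58 ± 0.33 and Ier5 at 0.42 ± 0.15.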

How the data were processed

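Single-cell 3′ RNA libraries (7) of primary myoblasts, injured MuSCs, homeostatic MuSCs and total muscle were used. The deposited values are raw UMI counts per gene and barcode, whole numbers with no normalization, as tested on the files. Cell Ranger 2.2.0, mm10, Seurat 2.3.4 and bcl2fastq 2.17.1 appear in the submitters' processing notes, without roles; strand handling is not given in the sources used here. The 9 genes, the gene lists and the tests were chosen with earlier results of these data known.

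Cells with at least 200 genes and at most 10% mitochondrial UMIs were kept (15267 of 15474 barcodes). A cell took the type whose marker list had the largest share of its genes detected, with at least 2 markers; 3 listed markers are absent from the tables, and the myofibre list was used in total muscle only. No doublet caller was run. Leaving out cells with 2 markers of another type stands in for it, whatever the depth of the cell. That rule takes out 99.3% and 98.9% of tenocytes of total muscle 1 and 2. Counts were summed per library and type and tested with edgeR 4.0.16 in R 4.3.3 (glmQLFit and glmQLFTest, TMM, filterByExpr, Benjamini-Hochberg adjusted p under 0.05 over all genes tested); the standard error is the log2 fold change over the root of F. Sums of myogenic cells held 239652 to 112895645 UMIs. Injury and sort comparisons used 2 libraries against 2, primary myoblasts were fitted with the 4 sorted libraries, and types of total muscle were fitted with library as a term. DESeq2 1.42.0 was an alternative. All 9 genes passed the low-count filter in every comparison. Named genes are the 9 members, up to 3 called genes of each list with the highest mean CPM (at least 30), and the 3 genes most like a member; the text gives a part of these. Procedures were tested on simulated counts. Near-identical copies were sought with blastn 2.17.0 (at least 90 bases at 95% identity) in GENCODE transcripts, which may not be the release counted. Printed CPM values carry no TMM scaling, and the fold changes do.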

Additional observations from a re-analysis of the deposited data

How the results depend on the processing

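Over 972 recomputed values of single members, 892 were counted as unchanged, 38 newly passed the threshold with the same sign and 13 lost it. The other 29 changed sign, whatever their side of the threshold. Unchanged values kept their direction and their side of the threshold, with 2 exceptions. The 90 values of the F-test across types have no direction. Those of myogenic cells against other types with 1 total muscle library left out have no test and were judged by sign. All 9 genes were called lower in injured cells and in primary myoblasts than in homeostatic cells under every alternative run, except Fosl2 in injured cells without injured MuSC 1. None of the 9 was called in the main fit of homeostatic against total muscle cells, and shares of all genes called follow in brackets. Only 1 was called without scaling (6.33%) and with thinned cells (5.33%). The same count came with GC-rich barcodes (at least 8 of 16 bases, 5.9%) and without shared barcodes (5.67%). It was 2 with 1 more marker in the gate (5.9%) and 3 with all 7 libraries in the fit (4.95%). With all cells and no gate, which compares sorted cells with whole muscle, 7 were called, where 63.9% of all genes were. Leaving out 1 library gave 2 to 4 calls. With replicate number as a block 4 were called (2 higher and 2 lower), where 9.58% of all genes were. Nothing states that replicate numbers pair these libraries. The correlations of deviations between replicates were -0.04, 0.01 and 0.07, which cannot show whether the libraries are paired. The values that changed sign there were Jund (-0.78), Fosl2 (-0.21), Fosb (-0.31) and Junb (-0.85) with all cells, and Junb with GC-rich barcodes (-0.12) and without mixed cells (-0.19). Leaving out 1 library gave ranges of -0.71 to 0.42 for Atf3, -0.10 to 1.05 for Fosb, -0.16 to 0.29 for Junb, -1.06 to 0.20 for Fos and -0.029 to 0.245 for Fosl1. In injured against total muscle cells Fosl2 was 0.0625 without the low-count filter and -0.17 to 0.0061 with 1 library left out, and Jund lost its call without the filter (-0.25) and with 7 libraries (-0.33). In primary myoblasts against injured cells Maff (0.20) and Fosl1 (0.63) changed sign without scaling, Jun (-0.15) with the replicate block, and Fosl1 without the filter (0.10), with 1 more marker (0.0489) and with thinned cells (0.0812); with 1 library left out Fosl1 ran from -0.15 to 0.0813. In myogenic cells against other types, Jun (0.38), Fosl2 (1.59), Fosb (1.60) and Fos (0.26) changed sign without mixed cells, where few tenocytes remain and the median of all genes is 0.417 instead of -0.146; Fosb ran from -0.95 to 0.31 with 1 library left out. The alternatives with GC-rich barcodes, without mixed cells and without myofibre-gated barcodes were added after the data were seen. The cause of these changes was not tested. The 67 and 87 myogenic cells of total muscle and the 1 library of primary myoblasts limit the precision.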
